A study of Mus musculus with 10 samples.

Results

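Messenger RNA of 9 neuropeptide receptor genes was followed in nuclei of the mouse hippocampus and cortex. The genes are taken by name: the cholecystokinin receptor gene Cckbr, the corticotropin-releasing hormone receptor gene Crhr1, the vasoactive intestinal peptide receptor gene Vipr1, the kappa opioid receptor gene Oprk1, the neuropeptide Y receptor gene Npy1r, the relaxin receptor gene Rxfp1 and the somatostatin receptor genes Sstr2, Sstr3 and Sstr4. They are 9 of 23589 genes in the deposited table. The study applied DroNc-seq, which captures single nuclei in droplets with barcoded beads and counts unique molecular identifiers (UMIs), to brain tissue of C57BL/6 mice. The tissue was microdissected, flash frozen and stored before nuclei were isolated. The labels give no age, sex or treatment and no genetic change, and both regions were handled by the same protocol. Each region had 5 libraries: a and b of title number 0, and title numbers 1, 2 and 3. Libraries a and b were summed, which left 4 units per region, with 5658 hippocampal and 5966 cortical nuclei in all. The labels do not tie a number to a mouse, so the p-values here measure the spread between units, which may be technical.

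All 9 genes encode cell-surface receptors that pass the binding of a secreted peptide on to G proteins. As background, CRHR1, VIPR1 and RXFP1 act mainly by raising cyclic AMP, CCKBR acts mainly through phospholipase C, and the kappa opioid, NPY Y1 and somatostatin receptors act mainly through inhibitory G proteins that lower cyclic AMP and open potassium channels. In cortex and hippocampus many of the peptides are made by interneurons, while their receptors are often carried by the excitatory neurons around them.

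The 9 genes lie on 8 chromosomes of GRCm38 (mm10), by the GENCODE M21 annotation, and all are protein-coding. Cckbr lies at chr7:105425731-105470898, Crhr1 at chr11:104132855-104175523 and Vipr1 at chr9:121642716-121672954. Oprk1 lies at chr1:5588466-5606131, Npy1r at chr8:66697192-66706792 and Rxfp1, on the minus strand, at chr3:79641611-79737880. Sstr2 lies at chr11:113619342-113626028, Sstr3, on the minus strand, at chr15:78537008-78544685 and Sstr4 at chr2:148395344-148396767. The genes span from 1.4 kb for Sstr4, which is a single exon, to 96.3 kb for Rxfp1, of which 10.4% is exon. Rxfp1 shares 3510 bases with Gm26984, a gene annotated within its introns on the same strand, and all of Sstr2 lies inside Slc39a11, which is on the opposite strand. The sources used here do not say whether counting used strand, so Sstr2 values may hold Slc39a11 reads.

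Bases upstream of the start are shown for 4 members: Cckbr and Crhr1, which were lower in hippocampus, Sstr4, which was higher, and Sstr2, the only member with a full cyclic AMP response element there. The sequences are from RefSeq (GRCm38.p6), 5′ to 3′ on the plus strand, and capitals mark matches to the response element TGACGTCA, the E-box CACGTG or the GC box GGGCGG, each searched on both strands. They cover chr7:105425481-105425730 (Cckbr), chr11:104132531-104132780 (Crhr1), chr11:113619077-113619326 (Sstr2) and chr2:148395127-148395343 (Sstr4).
Cckbr: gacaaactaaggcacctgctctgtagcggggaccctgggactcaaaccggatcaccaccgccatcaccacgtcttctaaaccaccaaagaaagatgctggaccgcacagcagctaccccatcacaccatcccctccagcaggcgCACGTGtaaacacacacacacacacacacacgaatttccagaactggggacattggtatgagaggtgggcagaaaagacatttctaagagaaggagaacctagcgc
Crhr1: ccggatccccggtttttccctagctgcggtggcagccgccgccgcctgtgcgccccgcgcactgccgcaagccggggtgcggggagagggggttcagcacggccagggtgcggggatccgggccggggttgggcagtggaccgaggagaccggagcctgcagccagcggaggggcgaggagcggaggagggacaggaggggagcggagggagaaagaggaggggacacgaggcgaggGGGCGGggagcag
Sstr2: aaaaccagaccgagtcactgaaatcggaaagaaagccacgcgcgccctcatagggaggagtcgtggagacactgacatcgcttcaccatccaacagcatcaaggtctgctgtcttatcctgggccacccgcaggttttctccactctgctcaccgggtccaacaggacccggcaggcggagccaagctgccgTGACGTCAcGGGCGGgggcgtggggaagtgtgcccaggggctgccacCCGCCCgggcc
Sstr4: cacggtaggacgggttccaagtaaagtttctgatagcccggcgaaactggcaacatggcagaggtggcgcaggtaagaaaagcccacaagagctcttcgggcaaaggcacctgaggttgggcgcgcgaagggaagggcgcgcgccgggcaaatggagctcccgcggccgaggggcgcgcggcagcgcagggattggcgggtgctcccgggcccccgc
The RefSeq table holds windows of 300 bases, 250 before and 50 after a transcript's start, for 7 of the 9 members. The full response element was in 1.79% of all 32851 windows, the E-box in 7.15% and the GC box in 35.66%. Among the members' windows the response element was in that of Sstr2, the E-box in those of Cckbr and Sstr3, and the GC box in those of Crhr1, Sstr2 and Vipr1. The half-site TGACG, which every full element also holds, was in 20.81% of windows and in those of Sstr2, Sstr3 and Vipr1, and the TATA box TATAAA was in 13.62% of windows and in none of the members'. The window of Crhr1 was 75.0% G or C, that of Vipr1 73.7%, that of Sstr4 68.7% and that of Npy1r 51.7%, beside a median of 52.7% over all windows. A match is a description of these letters and not of a bound site.

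Libraries held 1443244 to 2600788 UMIs, and any pair of libraries shared at most 3 barcodes. Title number 0 stood apart in both regions. Chi-square per degree of freedom over genes was 7.41 to 8.41 between number 0 and the others in cortex and 4.81 to 5.25 in hippocampus, while numbers 1 to 3 of a region gave 1.39 to 1.83. Types are names of whole clusters, given from the markers of their nuclei of both regions pooled. Nuclei of clusters with markers of cortical layers 2 to 4 made up 26.1% of the excitatory nuclei of hippocampal unit 0. In hippocampal units 1 to 3 they made up 1.21% to 2.39%. Of nuclei in clusters with hippocampal markers, the hippocampal libraries held 1175 dentate granule-like, 358 CA1 pyramidal-like and 214 CA3 pyramidal-like, and the cortical libraries 0, 2 and 1. Nuclei of glial and vascular clusters also carried neuronal messages. Levels are given as CPM, the UMIs of a gene scaled to 1000000 UMIs of the same nuclei. Slc17a7, the vesicular glutamate transporter of excitatory neurons, stood at 291 CPM in cortical excitatory neuron-like nuclei and at 156 CPM in the cortical glial and vascular nuclei pooled, against 396 and 80.9 CPM in hippocampus. The part of such RNA in the levels below was not tested, and the glial and vascular level is given beside them.

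In sums over all nuclei, 6 of the 9 receptors were lower in hippocampus than in cortex, Sstr4 was higher, and Npy1r and Sstr3 did not pass the test (edgeR's quasi-likelihood test, Benjamini-Hochberg adjustment over 12855 genes, adjusted p under 0.05). Over all genes tested, 8.53% were called lower in hippocampus and 9.19% higher. The median log2 fold change was -0.92 over the 9 members and -0.01 over all genes. In such sums fewer cells of a type and less RNA per cell cannot be told apart. The same test on excitatory neuron-like nuclei alone called 3 members lower (Cckbr, Oprk1 and Crhr1) and 1 higher (Sstr4), where 7.57% of 10917 genes were called lower and 8.96% higher. With the title number as a block it called 6 members in excitatory nuclei, Vipr1 lower and Npy1r higher in addition, and 2637 genes against 1804.

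**Figure D1:**
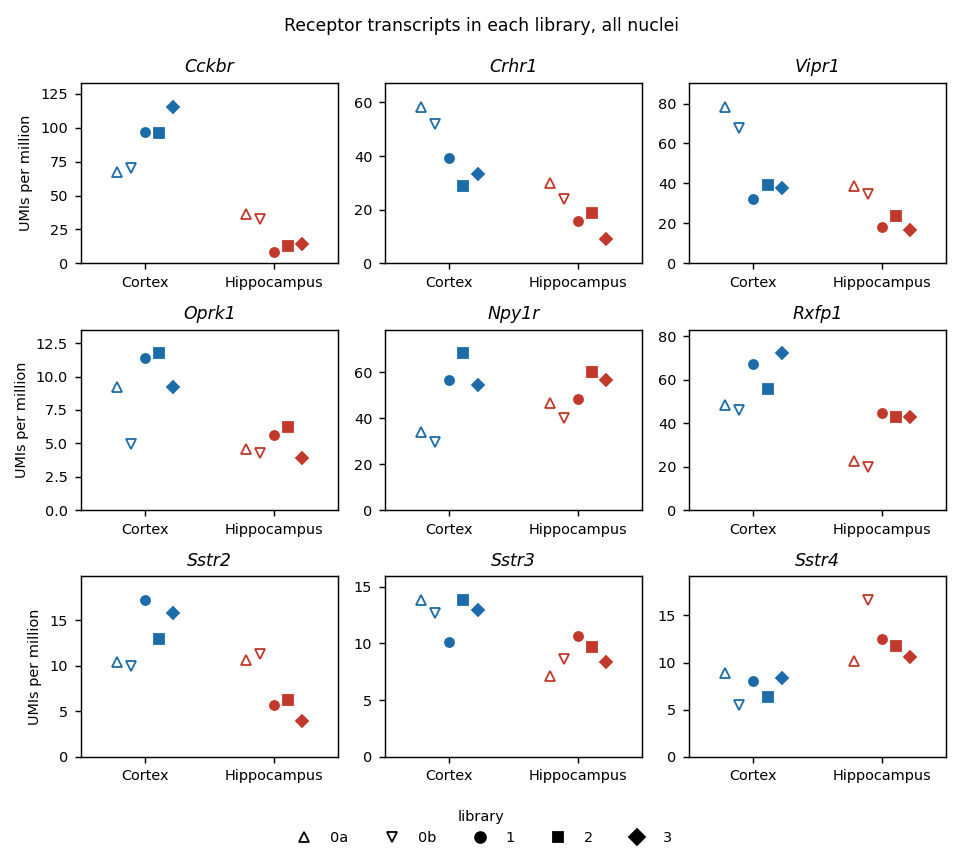
Level of each receptor gene in CPM (y axis) in the 5 cortical (blue) and 5 hippocampal (red) libraries (x axis), over all nuclei, with open triangles for libraries a and b of title number 0 and filled symbols for numbers 1 to 3. Every Cckbr value of cortex lies above every one of hippocampus, while the Npy1r values of the regions overlap.

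Cckbr, the brain's main cholecystokinin receptor, had the largest fold change of the 9 over all nuclei. Cortical libraries 0a, 0b, 1, 2 and 3 gave 67.7, 70.3, 97.2, 96.5 and 116 CPM, and hippocampal libraries gave 36.5, 32.8, 8.16, 13.2 and 14.5. The regions did not overlap, and the libraries of number 0 were the lowest in cortex and the highest in hippocampus. Over units the mean was 94.5 ± 19.3 CPM in cortex and 17.6 ± 11.7 in hippocampus (SD, n = 4 each), a 4.83-fold lower level (log2 fold change -2.27 ± 0.30 SE, edgeR adjusted p = 0.000286). In 5 of the 9 members the units of the regions did not overlap: every cortical unit was above every hippocampal unit for Cckbr, Crhr1, Oprk1 and Rxfp1, as for 9.93% of all genes, and every hippocampal unit was above for Sstr4, as for 11.5%.

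The Cckbr difference was also present among excitatory neuron-like nuclei. Cortical units 0 to 3 gave 88.1, 120, 117 and 134 CPM and hippocampal units gave 57.8, 8.90, 17.6 and 19.2, with no overlap (log2 fold change -1.95 ± 0.34, edgeR adjusted p = 0.00141). In these nuclei cortical units were all above hippocampal units for Cckbr and Oprk1, as for 10.4% of genes, and below for Sstr4, as for 9.87%. Of the 89 Cckbr UMIs in excitatory nuclei of hippocampal unit 0, 64 came from layer 2-4-like nuclei, and units 1 to 3 had none from such nuclei. Without nuclei of cortical-layer-like types in the hippocampal libraries, a comparison chosen after the data were seen, the log2 fold change was -3.39. That comparison takes out those 64 UMIs, so a larger difference followed from the choice. By type, layer 2-4-like, layer 5-like and layer 6-like nuclei of cortex held 109, 114 and 101 CPM, with overlapping unit values of 62.5 to 144. CA3 pyramidal-like nuclei held 25.3, CA1 pyramidal-like nuclei 10.4 and dentate granule-like nuclei 2.79 CPM, the last from 4 UMIs in 1175 nuclei. Every unit of the 3 hippocampal types, at 0 to 39.8, was below every unit of the 3 cortical layer types.

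Nuclei of other cell types give the background of Cckbr. Cortical glial and vascular nuclei held 54.5 CPM (95% Poisson interval 45.3 to 65.0, which covers counting error only), and 12.8% of them had a Cckbr UMI at a median of 1869 UMIs per nucleus. In cortical excitatory nuclei the share was 16.1% at a median of 1282 UMIs. After each nucleus was thinned to 646 UMIs, the shares were 3.13% and 7.03%. Within the cortical glial and vascular pool, microglia-like nuclei held 83.9 CPM and endothelial-like nuclei 30.5. Cortical inhibitory neuron-like nuclei held 52.2 CPM. Of their 55 UMIs, 27 lay in the unnamed cluster I4 and 11 in the unnamed cluster I1, with leading genes Cpne9 and Ctgf. Their best marker scores were those of layer 2-4 and layer 5 types, on a scale set by the inhibitory clusters only. Without I1 and I4 the level was 31.2 CPM, from 17 UMIs in 373 nuclei. Hippocampal glial and vascular nuclei held 6.26 CPM, below the 31.9 of hippocampal excitatory nuclei. Cck, the gene of the peptide, was not called different between regions, with 250 ± 22.8 CPM in cortex and 213 ± 27.1 in hippocampus over all nuclei (edgeR adjusted p = 0.152).

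**Figure D2:**
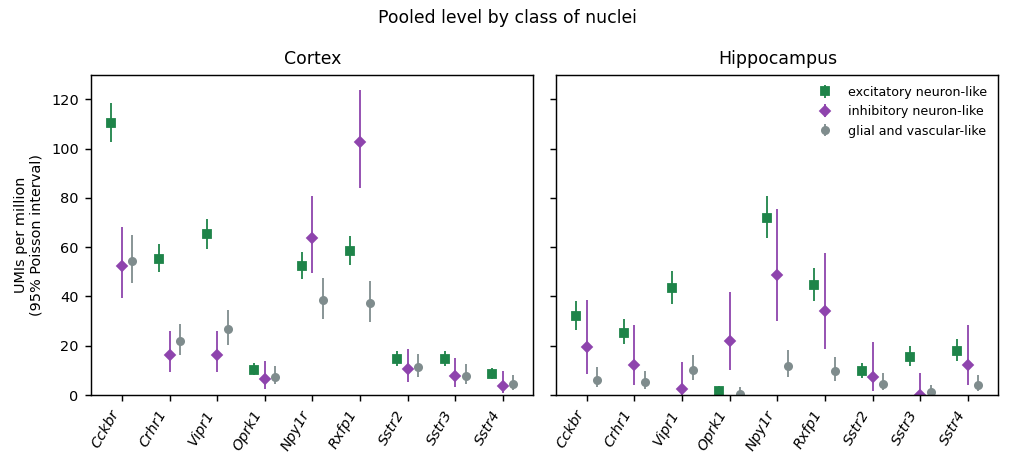
Pooled level of each receptor gene in CPM (y axis) in excitatory neuron-like (green squares), inhibitory neuron-like (purple diamonds) and glial and vascular-like nuclei (grey circles), for cortex (left) and hippocampus (right); bars are 95% Poisson intervals. In cortex the glial and vascular level of Cckbr, 54.5, was below the excitatory level of 110.4, and the inhibitory level was 52.2 with the unnamed clusters I1 and I4 and 31.2 without them.

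Crhr1, which binds corticotropin-releasing hormone and urocortin, was lower in hippocampus both over all nuclei and in excitatory nuclei. Cortical libraries 0a, 0b, 1, 2 and 3 gave 58.4, 52.0, 39.1, 28.9 and 33.4 CPM and hippocampal libraries 29.9, 24.2, 15.7, 18.7 and 8.92. Library 0a of hippocampus was just above cortical library 2, while the units did not overlap (log2 fold change -1.13 ± 0.28, edgeR adjusted p = 0.0132). In excitatory nuclei cortical units 0 to 3 gave 76.2, 45.3, 39.3 and 44.8 CPM and hippocampal units 42.2, 15.3, 17.6 and 11.3. Hippocampal unit 0 overlapped cortical unit 2, and 44 of its 65 UMIs came from layer 2-4-like nuclei. Without cortical-layer-like nuclei of the hippocampal libraries the log2 fold change was -2.05. That comparison was chosen after the data were seen and takes out those 44 UMIs. Over all excitatory nuclei the log2 fold change was -1.13 ± 0.33 (edgeR adjusted p = 0.0324). That call was lost when cortical unit 0 or hippocampal unit 1, 2 or 3 was left out, with adjusted p up to 0.106.

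Crhr1 was higher in layer 2-4-like nuclei, pooled, than in the other cortical layer types. Units 0 to 3 gave 87.5, 66.5, 46.8 and 65.8 CPM there, 38.9, 33.0, 20.7 and 8.88 in layer 5-like nuclei, and 21.2, 0, 31.3 and 8.21 in layer 6-like nuclei. Every layer 2-4-like unit was above every layer 5-like and layer 6-like unit, and the latter types overlapped each other. The clusters pooled as layer 2-4-like differed among themselves. The clusters led by Scn7a (E2) and Deptor (E9) held 112 and 104 CPM over the nuclei of both regions, while 2 others, E1 and E10, held 34.7 and 44.2. The layer 2-4 marker score was 0.588 and 0.596 in E2 and E9, near the minimum of 0.5 for a name, and 0.854 and 0.87 in E1 and E10. Layer 2-4-like nuclei held 61.5% of all cortical Crhr1 UMIs and 35.8% of all cortical UMIs. The glial and vascular level in cortex was 22 CPM, so the layer 5-like and layer 6-like levels, pooled at 27.2 and 15.3, were near or below it. In hippocampus CA1 pyramidal-like nuclei held 23.8, CA3 pyramidal-like nuclei 17.4 and dentate granule-like nuclei 6.27 CPM, beside 5.13 in glial and vascular nuclei. Crh, the peptide's gene, was also lower in hippocampus over all nuclei, at 1.93 ± 1.25 CPM against 7.03 ± 1.23 (log2 fold change -1.71 ± 0.37, edgeR adjusted p = 0.007).

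Vipr1, a receptor for vasoactive intestinal peptide and for the related peptide PACAP, was lower in hippocampus over all nuclei, and title number 0 was highest in both regions. Cortical libraries 0a, 0b, 1, 2 and 3 gave 78.4, 67.5, 32.0, 39.0 and 37.6 CPM and hippocampal libraries 38.5, 34.9, 18.2, 23.6 and 16.7. Hippocampal unit 0 overlapped the cortical units, while hippocampal units 1 to 3 were all below cortex (log2 fold change -0.92 ± 0.29, edgeR adjusted p = 0.0437). The call was kept in 3 of the 8 fits that left out a unit, with adjusted p up to 0.127. With title numbers 1 to 3 alone it was -0.91 (edgeR adjusted p = 0.000311), and without cortical unit 0 it was -0.54 (edgeR adjusted p = 0.104). In excitatory nuclei Vipr1 did not pass the test (-0.56 ± 0.32, edgeR adjusted p = 0.284). With the title number as a block it did (-0.60, edgeR adjusted p = 0.0098).

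For Vipr1 the excitatory types of both regions overlapped. Layer 2-4-like, layer 5-like and layer 6-like nuclei of cortex held 67.7, 59.4 and 57.9 CPM, CA3 pyramidal-like nuclei 33.2, dentate granule-like nuclei 31.4 and CA1 pyramidal-like nuclei 22.3. Unit values of the layer types ranged from 7.54 to 99.4, and those of the hippocampal types from 0 to 50.5. Inhibitory nuclei were low, at 16.1 CPM in cortex and 2.45, from 1 UMI, in hippocampus, against 26.8 and 10.2 in glial and vascular nuclei of cortex and hippocampus. Of the 17 cortical inhibitory UMIs, 13 lay in I4 and 2 in I1. Without these clusters the level was 3.67 CPM, from 2 UMIs in 373 nuclei. Within the cortical glial and vascular pool, oligodendrocyte precursor-like nuclei held 61.9 CPM, near the layer 5-like and layer 6-like levels, and astrocyte-like nuclei 12.7. Vip was lower in hippocampus over all nuclei (log2 fold change -1.58 ± 0.39, edgeR adjusted p = 0.0132), as was Adcyap1, the gene of PACAP (-1.35 ± 0.34, edgeR adjusted p = 0.0162).

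**Figure D3:**
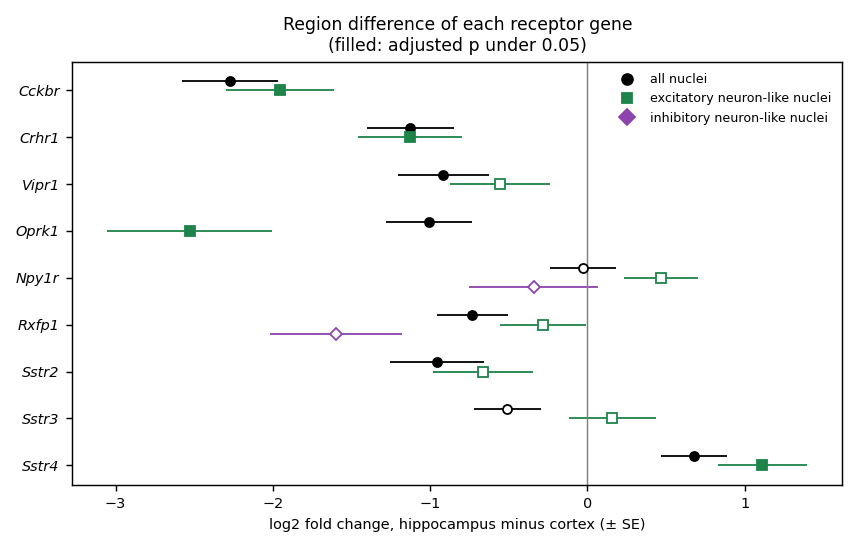
Log2 fold change, hippocampus minus cortex, with its SE (x axis) for each receptor gene (y axis) over all nuclei (black circles), excitatory neuron-like nuclei (green squares) and inhibitory neuron-like nuclei (purple diamonds); filled symbols have an adjusted p under 0.05. Sstr4 is the only member called higher in hippocampus, at 0.68 and 1.11, and Oprk1 is the lowest in excitatory nuclei, at -2.53.

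Oprk1, the receptor for dynorphins, was sparse, with 110 UMIs in cortex and 42 in hippocampus. Cortical libraries 0a, 0b, 1, 2 and 3 gave 9.23, 4.98, 11.4, 11.7 and 9.18 CPM and hippocampal libraries 4.56, 4.30, 5.65, 6.24 and 3.90. Libraries overlapped only through cortical library 0b, and the units did not overlap (log2 fold change -1.01 ± 0.27, edgeR adjusted p = 0.0227). The call was kept in 4 of the 8 fits that left out a unit, with adjusted p up to 0.0725. In excitatory nuclei cortical units 0 to 3 gave 9.12, 9.07, 15.9 and 7.83 CPM and hippocampal units 1.95, 3.82, 1.36 and 0. That is 70 UMIs in 3933 nuclei against 7 UMIs in 2329 nuclei, a log2 fold change of -2.53 ± 0.52 (edgeR adjusted p = 0.00525). The cortical glial and vascular level was 7.47 CPM (95% Poisson interval 4.35 to 12), which overlapped the cortical excitatory level of 10.3 (8.01 to 13), and the hippocampal levels were 0.569 and 1.77 CPM.

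The cortical Oprk1 signal was highest in 2 excitatory clusters that met no layer's markers. The cluster led by Col6a1, Nnat and Col5a2 (E14) held 55.4 CPM (95% Poisson interval 25.3 to 105), from 9 UMIs. The cluster led by Sst, with Oprk1 itself as its second leading gene (E15), held 38.0 (20.2 to 65.0), from 13 UMIs, 6 of them in 10 nuclei of unit 0. Both clusters lay in the excitatory class. Among the excitatory clusters, to which the scores are scaled, their best type scores were those of interneurons. E14 scored 0.507 for Lamp5 or Ndnf interneurons, and E15 scored 0.572 for Sst interneurons and 0.558 for layer 6. Their levels were far below those of interneuron clusters. E15 held 136 CPM of Sst against 1992.5 in Sst interneuron-like cluster I2. E14 held 62.9 CPM of Npy against 2214.2 in Lamp5 or Ndnf interneuron-like cluster I5. Oprk1, Rxfp1 and the other receptor genes studied were not used to form the clusters. E14 held 8.18% and E15 11.8% of cortical Oprk1 UMIs, beside 1.40% and 2.96% of all cortical UMIs. Dentate granule-like nuclei had 0 Oprk1 UMIs in 1175 nuclei, which allows a share of nuclei with a UMI of up to 0.255%, and CA1 pyramidal-like nuclei had 0 in 358, which allows up to 0.838%. In inhibitory nuclei the order of the regions was the other way, with 9 UMIs (22 CPM, 10.1 to 41.8) in hippocampus and 7 UMIs (6.65, 2.67 to 13.7) in cortex. The hippocampal unit values were 5.91, 53.3, 23.2 and 30.8 CPM and the cortical ones 7.37, 17.9, 0 and 0, which overlapped. The difference of the region effect between inhibitory and excitatory nuclei was called for Oprk1 (log2 4.33 ± 1.06, edgeR adjusted p = 0.00676), where 1.02% of 9864 genes were called in that direction, 2.3% in the other and 3.33% in all. This Oprk1 value rests on few UMIs and was not called without hippocampal unit 3 (3.79, edgeR adjusted p = 0.0837). The other 5 members that could be tested, Cckbr, Crhr1, Vipr1, Npy1r and Rxfp1, were not called. The region effects of Rxfp1 (-1.21 ± 0.44, edgeR adjusted p = 0.122) and Npy1r (-0.89 ± 0.40, edgeR adjusted p = 0.292) differed by less than the test could call. A further 14 of the 42 hippocampal Oprk1 UMIs came from an unnamed cluster led by Glra1, Tfap2b and Slc17a6, which held 7.3% of hippocampal UMIs. Pdyn, the dynorphin precursor gene, was not called over all nuclei (0.23 ± 0.33, edgeR adjusted p = 0.701).

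Rxfp1, a relaxin receptor, was lower in hippocampus over all nuclei, but its hippocampal UMIs were concentrated in few nuclei. Cortical libraries 0a, 0b, 1, 2 and 3 gave 48.4, 45.9, 67.3, 55.8 and 72.2 CPM and hippocampal libraries 22.8, 19.9, 44.6, 43.0 and 42.9. No hippocampal library reached the lowest cortical one (log2 fold change -0.73 ± 0.23, edgeR adjusted p = 0.0416). Of the 8 fits that left out a unit, only that without cortical unit 0 kept this call, and adjusted p reached 0.114 in the others. In excitatory nuclei the difference was not called (-0.28 ± 0.27, edgeR adjusted p = 0.564), with cortical units at 52.8, 58.6, 55.9 and 70.5 CPM and hippocampal units at 21.4, 59.8, 48.8 and 67.6.

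Of the 176 Rxfp1 UMIs in hippocampal excitatory nuclei, 99 lay in 63 nuclei of the cluster named layer 5-like (E8). That name came from the markers of all 352 nuclei of the cluster, of both regions. The markers of the hippocampal ones alone were not scored. Units 1, 2 and 3 gave 738, 658 and 1123 CPM in 15, 14 and 18 such nuclei, with 35, 22 and 41 UMIs. Unit 0 gave 14.2 CPM, from 1 UMI in 16 nuclei. The pooled level was 527 CPM, and 835 CPM with title numbers 1 to 3 alone. These nuclei were 44.4% positive at a median of 2507 UMIs, and 30.2% after thinning. Layer 5-like nuclei of cortex, which fell in the same cluster (led by Coro6 and Fezf2), held 20.4 CPM, with units from 0 to 39.6. Hippocampal glial and vascular nuclei held 9.68 CPM, CA3 pyramidal-like nuclei 3.16, dentate granule-like nuclei 2.09 and CA1 pyramidal-like nuclei 0 UMIs, which allows a level of up to 4.46 CPM. Without cortical-layer-like nuclei of the hippocampal libraries the excitatory log2 fold change was -2.94. That comparison was chosen after the data were seen and takes out the 99 UMIs above. A lower value therefore followed from the choice, and it is no test of the difference.

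In cortex Rxfp1 levels ranged widely between neuron types, with the higher ones in E14, E15, I4 and a pair of interneuron types. E14 held 259 CPM, with 380, 298 and 141 in units 1, 2 and 3, and E15 held 149. Lamp5 or Ndnf interneuron-like nuclei held 277 CPM (95% Poisson interval 169 to 427, from 20 UMIs) and Vip interneuron-like nuclei 180 (92.8 to 314, from 12 UMIs), against 15.5 in Pvalb interneuron-like nuclei. I4 held 146 (111 to 189, from 59 UMIs in 94 nuclei). The unnamed excitatory cluster E11 held 90.5 CPM and layer 6-like nuclei 76.7, with units from 60.3 to 98.6. The cortical glial and vascular level was 37.3 CPM, at which layer 2-4-like nuclei, at 39.9, also stood. Within that pool, oligodendrocyte precursor-like nuclei held 76.4 (47.3 to 117) and microglia-like nuclei 72.8 (53.3 to 97.1), at the layer 6-like level. Astrocyte-like, meningeal fibroblast-like and endothelial-like nuclei held 25.5, 16.8 and 7.63. Inhibitory nuclei as a class held 86.0, 130, 103 and 105 CPM in cortical units 0 to 3 and 47.3, 35.5, 0 and 41.1 in hippocampal units. I4 held 59 of the 108 cortical UMIs of the class, and without I1 and I4, a comparison chosen after the data were seen, cortical units gave 76.3, 115, 61.7 and 36.9 CPM and hippocampal units 27.2, 21.6, 0 and 42, which overlapped. With I1 and I4 the units did not overlap, as for 3.24% of 4715 genes with cortex above and 2.06% with hippocampus above, yet the fold change was not called (-1.60 ± 0.42, edgeR adjusted p = 0.0994). Without I1 and I4 Rxfp1 had too few UMIs to be tested. Only Rxfp1 and Npy1r had enough UMIs to be tested in inhibitory nuclei, neither was called, and 0.17% of genes were. Over those genes 0.106% were called lower and 0.0636% higher in hippocampus. DESeq2 also called 0 of the members there, and edgeR's unadjusted value was under 0.05 for 1 of them, Rxfp1. With title numbers 1 to 3 alone Rxfp1 was called (-2.13, edgeR adjusted p = 0.00906).

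**Figure D4:**
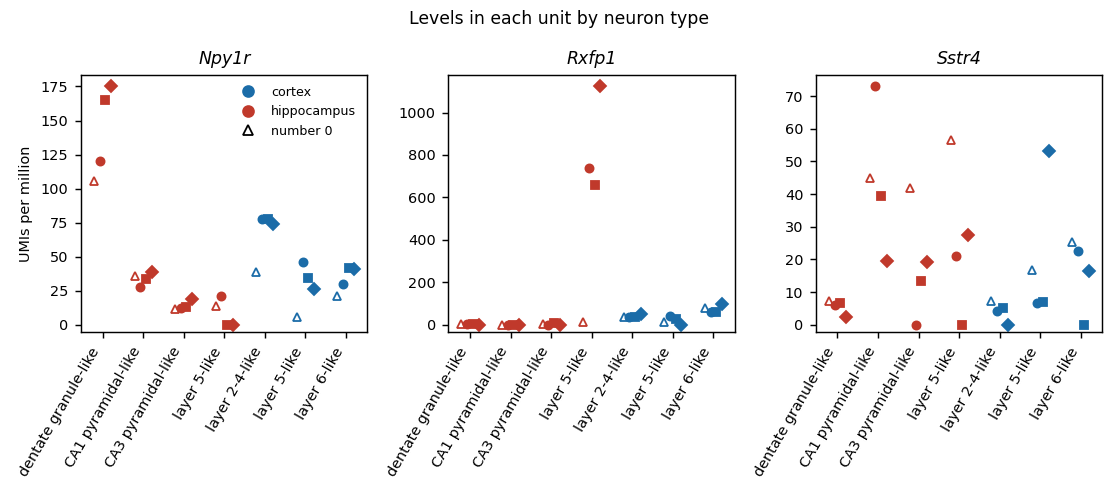
Level of Npy1r, Rxfp1 and Sstr4 in CPM (y axis) by neuron type (x axis) in each unit with at least 10 nuclei of the type, hippocampus in red and cortex in blue, with open triangles for title number 0. Npy1r in dentate granule-like nuclei, at 105 to 175, is above the other types plotted, and Rxfp1 in layer 5-like nuclei of hippocampus is high in units 1 to 3 and low in unit 0.

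Npy1r, the Y1 receptor for neuropeptide Y, was not called different between the regions over all nuclei, and among hippocampal excitatory types it was highest in dentate granule-like nuclei. Cortical libraries 0a, 0b, 1, 2 and 3 gave 33.8, 29.9, 56.8, 68.4 and 54.7 CPM and hippocampal libraries 46.6, 40.3, 48.3, 60.3 and 56.8. The values overlapped, and the libraries of number 0 were the lowest of each region (log2 fold change -0.03 ± 0.21, edgeR adjusted p = 0.949). In excitatory nuclei cortical units 0 to 3 gave 33.7, 60.7, 68.3 and 61.2 CPM and hippocampal units 53.9, 64.9, 90.8 and 93.6. This was not called (0.47 ± 0.24, edgeR adjusted p = 0.214), but with the title number as a block it was (0.49, edgeR adjusted p = 0.0159).

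Dentate granule-like nuclei held 202 of the 433 hippocampal Npy1r UMIs (46.7%) and 16.6% of all hippocampal UMIs. Their units 0 to 3 gave 105, 121, 165 and 175 CPM, and 14.6% of the 1175 nuclei had a UMI (8.02% after thinning). CA1 pyramidal-like units gave 35.9, 28.1, 33.8 and 39.1 CPM and CA3 pyramidal-like units 12, 12.6, 13.3 and 19.1. The 3 types did not overlap, in the order dentate granule-like, CA1 and CA3, and CA3 was at the level of hippocampal glial and vascular nuclei, 12 CPM. In cortex layer 2-4-like units gave 38.8, 77.6, 77.9 and 74.2 CPM, above the layer 5-like and layer 6-like nuclei of the same unit in each of the 4 units. The clusters pooled as layer 2-4-like differed. Over nuclei of both regions E17, with 64 nuclei and Npy1r among its leading genes, held 206 CPM from 15 UMIs. The other layer 2-4-like clusters of at least 50 nuclei held 46.2 to 74.8, and the dentate granule-like clusters E0 and E4 held 116 and 161. Vip interneuron-like nuclei were high in both regions but with few UMIs: 210 CPM from 10 UMIs in hippocampus (95% Poisson interval 101 to 386) and 105 from 7 UMIs in cortex (42.1 to 216). The cortical glial and vascular level was 38.7 CPM, with 67.4 in meningeal fibroblast-like and 25.4 in endothelial-like nuclei. Cortical inhibitory nuclei held 63.6 (49.3 to 80.8). Of their 67 UMIs, 27 lay in I4 and 13 in I1. Without these clusters the level was 49.5 CPM, from 27 UMIs in 373 nuclei. Npy was lower in hippocampus over all nuclei (log2 fold change -0.80 ± 0.18, edgeR adjusted p = 0.00805) and in excitatory nuclei (-1.77 ± 0.33, edgeR adjusted p = 0.00222). In inhibitory nuclei it was not called (0.28 ± 0.18, edgeR adjusted p = 0.786).

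Of the somatostatin receptors, Sstr4 was higher in hippocampus, Sstr2 lower over all nuclei, and Sstr3 was not called. Sstr4 gave 8.84, 5.53, 8.0, 6.29 and 8.35 CPM in cortical libraries 0a, 0b, 1, 2 and 3 and 10.1, 16.7, 12.6, 11.8 and 10.6 in hippocampal ones. Every hippocampal library was above every cortical one (log2 fold change 0.68 ± 0.21, edgeR adjusted p = 0.0412), from 87 and 107 UMIs. Over all nuclei this call was lost in each of the 8 fits that left out a unit, with adjusted p up to 0.109 and log2 fold changes from 0.61 to 0.73. In excitatory nuclei cortical units 0 to 3 gave 9.52, 7.67, 5.52 and 9.96 CPM and hippocampal units 21.4, 20.3, 14.9 and 12.4, with no overlap (1.11 ± 0.29, edgeR adjusted p = 0.0165). That call was kept in 7 of the 8 fits.

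Among the neuron types mapped, Sstr4 was highest in CA1 pyramidal-like nuclei, where units 0 to 3 gave 44.9, 72.9, 39.4 and 19.5 CPM, from 29 UMIs. Dentate granule-like units gave 7.36, 6.18, 6.59 and 2.50 and layer 2-4-like units of cortex 7.25, 4.16, 5.20 and 0, all below every CA1 unit. CA3 pyramidal-like nuclei, at 19, and layer 5-like and layer 6-like nuclei of cortex, both at 18.7, overlapped CA1 pyramidal-like nuclei. Glial and vascular nuclei held 4.39 CPM in cortex and 3.99 in hippocampus.

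Sstr2 gave 10.4, 9.96, 17.3, 13 and 15.9 CPM in cortical libraries 0a, 0b, 1, 2 and 3 and 10.6, 11.3, 5.65, 6.24 and 3.90 in hippocampal ones. Libraries of number 0 lay between 9.96 and 11.3 in both regions, while numbers 1 to 3 did not overlap (log2 fold change -0.96 ± 0.30, edgeR adjusted p = 0.0443). With title numbers 1 to 3 alone it was -1.57 (edgeR adjusted p = 0.000224), and the call was kept in 2 of the 8 fits that left out a unit. In excitatory nuclei Sstr2 was not called (-0.66 ± 0.32, edgeR adjusted p = 0.19). Layer 6-like nuclei of cortex held 35.8 CPM, with units at 33.9, 30.1, 20.8 and 57.5, all above the layer 2-4-like units at 10.9, 6.93, 3.90 and 7.0. Layer 6-like nuclei held 13.5% of cortical Sstr2 UMIs and 5.1% of all cortical UMIs. The unnamed excitatory cluster E11 held 9.68% of cortical Sstr2 UMIs and 3.63% of all cortical UMIs. Over nuclei of both regions E11 held 39.4 CPM, beside 34.7 in layer 6-like cluster E5. The other unnamed clusters E15, E13, E6, E14 and E16 held 27.8, 27.6, 13, 5.72 and 0. Glial and vascular nuclei held 11.4 CPM in cortex and 4.56 in hippocampus. In the cortical pool, oligodendrocyte precursor-like nuclei held 32.8, from 9 UMIs, and endothelial-like nuclei 3.81. Slc39a11, in which Sstr2 lies, was not called over all nuclei and had the opposite sign (0.96 ± 0.38, edgeR adjusted p = 0.107).

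Sstr3, a receptor known from neuronal primary cilia, gave 13.8, 12.7, 10.1, 13.8 and 12.9 CPM in cortical libraries and 7.10, 8.59, 10.7, 9.70 and 8.36 in hippocampal ones. Cortical library 1 was the lowest of its region and overlapped hippocampal library 1 (log2 fold change -0.51 ± 0.22, edgeR adjusted p = 0.13). In excitatory nuclei the regions overlapped (0.16 ± 0.28, edgeR adjusted p = 0.782). CA3 and CA1 pyramidal-like nuclei held 25.3 and 22.3 CPM, layer 2-4-like nuclei of cortex 16.2 and dentate granule-like nuclei 11.9, with overlapping units. Glial and vascular nuclei held 7.91 CPM in cortex and 1.14 in hippocampus. Sst was called lower in hippocampal excitatory nuclei (-0.95 ± 0.29, edgeR adjusted p = 0.0413) but not over all nuclei (-0.30 ± 0.18, edgeR adjusted p = 0.3).

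**Figure D5:**
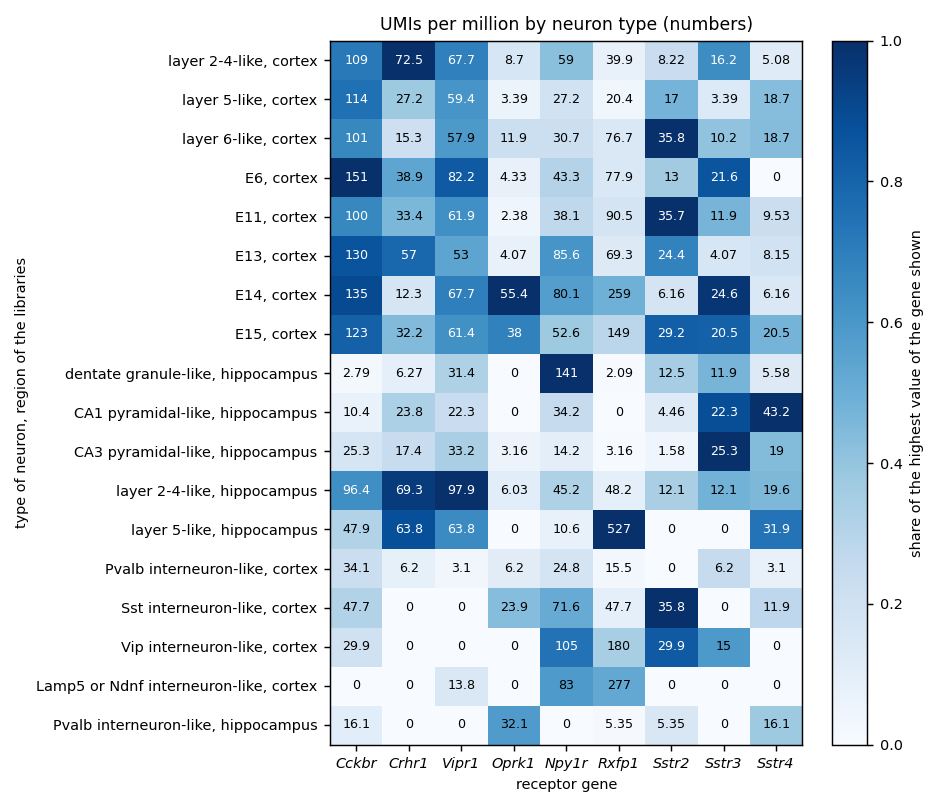
Pooled level in CPM (numbers in the cells) of each receptor gene (x axis) in neuron types of cortex and hippocampus (y axis), with colour as the share of the highest value shown for the gene; E6, E11, E13, E14 and E15 are excitatory clusters without a type name. The highest value shown was in dentate granule-like nuclei for Npy1r (141), in CA1 pyramidal-like nuclei for Sstr4 (43.2) and in layer 5-like nuclei of hippocampus for Rxfp1 (527).

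Other genes of these pathways, taken from lists that were drawn up with earlier results of these data known, gave the following counts. Of 52 other neuropeptide receptor genes, 49 were in the table and 14 were tested over all nuclei, of which 3 were higher and 3 lower in hippocampus, with a median log2 fold change of 0.03. The higher ones were Npy2r, the Y2 receptor (log2 fold change 3.07 ± 0.36, edgeR adjusted p = 0.000137), the neurotensin receptor Ntsr2 (1.22 ± 0.19) and the CGRP receptor component Calcrl (0.90 ± 0.28). The lower ones were Sstr1 (-1.03 ± 0.32), Oprd1 (-1.0 ± 0.32) and Kiss1r (-0.93 ± 0.26). In excitatory nuclei 2 of 9 tested were higher, Npy2r (4.35 ± 0.42) and Ntsr2 (1.56 ± 0.23), and 1 was lower, Sstr1 (-1.5 ± 0.44). No gene of this list was called in inhibitory nuclei, where 1 was tested.

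Among 13 genes of the members' own peptides and the CRH-binding protein, 9 were tested over all nuclei, of which 4 were lower in hippocampus (Crh, Npy, Vip and Adcyap1) and none higher, with a median log2 fold change of -0.80. Of 8 other neuropeptide genes tested, Tac2 was lower (-2.05 ± 0.41, edgeR adjusted p = 0.00415) and none was higher. Of 34 genes of G protein signalling tested, 8 were lower and 1 higher, with a median log2 fold change of -0.14. The lower ones included the protein kinase A subunit genes Prkar1b (-1.19 ± 0.16), Prkar2b (-0.86 ± 0.15) and Prkacb (-0.65 ± 0.12), the phospholipase gene Plcb1 (-0.69 ± 0.11) and Rgs4 (-1.33 ± 0.31), which speeds the shut-off of G proteins. The higher one was the adenylyl cyclase gene Adcy1 (0.55 ± 0.15). In excitatory nuclei 6 of 32 were lower and 3 higher, the latter being Adcy1 (1.09 ± 0.18) and the potassium channel genes Kcnj6 (0.84 ± 0.15) and Kcnj3 (0.62 ± 0.17).

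Likeness between genes was described over 25 neuron clusters of at least 50 nuclei, as Pearson's r of log2(CPM + 10), among genes with a mean of at least 20 CPM. Clusters share libraries and depth, so r is given without a test. The members most alike were Crhr1 and Vipr1 (r = 0.81), followed by Cckbr and Crhr1 (0.68). Vipr1 was most like Fam212b (0.93), Kalrn (0.93) and Synpo (0.91), Cckbr most like Arpp19 (0.90), Arhgap32 (0.89) and Cobl (0.89), and Crhr1 most like R3hdm1 (0.88), Lin7b (0.85) and Exd2 (0.85). Npy1r was most like Igfbp5 (0.82), Slitrk2 (0.79) and Jun (0.76), and Rxfp1 most like Cxadr (0.80), Hivep1 (0.80) and Osbpl8 (0.79). For the sparser members r was lower, at 0.77 for Sstr4 with Zer1, 0.76 for Sstr3 with Arf3, 0.76 for Oprk1 with Pgm3 and 0.71 for Sstr2 with Nme1. In 6262 excitatory nuclei Cckbr and Vipr1 UMIs were found together in 117 nuclei, out of 731 with Cckbr and 531 with Vipr1, and Cckbr and Crhr1 together in 100, out of 402 with Crhr1.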

How the data were processed

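Nuclei of 10 libraries were analysed, 5 from hippocampus and 5 from cortex. The deposited table holds UMI counts per gene and nucleus, as whole numbers without normalization. The submitters' processing notes name STAR, Seurat and mm10, with no order of steps. The authors' filters and use of strand are not given in the sources used here. Of the table's columns, 1689 matched no sample label and were not used. The members and gene lists were chosen with earlier results of these data known.

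Nuclei were clustered with scanpy 1.11.5 and leidenalg 0.10.2 on 2000 variable genes after 16 neuropeptide and receptor genes were dropped, and clusters were named "-like" from marker lists. A doublet scorer called 1148 nuclei (9.88%), which were kept, and removed in an alternative. Counts were summed per unit of at least 20 nuclei and compared between regions by the quasi-likelihood test of edgeR 4.0.16 in R 4.3.3, after its filterByExpr and TMM steps, with Benjamini-Hochberg adjustment over all genes tested and a threshold of 0.05. The difference of region effects was an interaction term in a fit over excitatory and inhibitory sums. The fits were checked on simulated counts. DESeq2 1.42.0, no filter, a block for the title number, title numbers 1 to 3 alone, left-out units, a UMI floor of 646 and other clusterings were alternatives. A level in CPM is a gene's UMIs scaled to 1000000 UMIs of the same nuclei. Thinned shares use 646 UMIs per nucleus, which left out 1611 hippocampal and 89 cortical nuclei. Intervals cover counting error only, and a count of 0 is given a limit of 3 UMIs.

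In excitatory sums, deviations of units of the same title number had positive r across regions (0.512, 0.117, 0.132 and 0.156 for numbers 0 to 3). This meets the criterion set for pairing. Unlike numbers among 1 to 3 gave 0.12 to 0.213, as high as like ones, so only number 0 stood apart. Number 0 against the others gave -0.325 to -0.207. The fits without the block were fixed as the main ones, so the blocked value is printed beside each result whose call it changes. In all nuclei (0.041 to 0.485) and inhibitory nuclei (0.015 to 0.177) the criterion was not met. All members are named. Of the other lists, up to 8 called genes per comparison are named, those of smallest p first, and for likeness the 3 genes of highest r.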

Additional observations from a re-analysis of the deposited data

Results flagged for a closer look

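In 6 of 40 groups of 4 units, 1 unit lay far from the others, as measured by its gap to the nearest unit over the whole range (above Dixon's 95% critical value for 4 samples). Chance gives about 1 in 20 groups. Cortical unit 0 was high for Vipr1 over all nuclei, with a ratio of 0.833, and for Crhr1 in excitatory nuclei, with 0.837. Hippocampal unit 0 was low for Rxfp1 over all nuclei (0.928) and high for Sstr2 in excitatory nuclei (0.859). Cortical unit 2 was high for Oprk1 in excitatory nuclei (0.839) and for Npy1r in inhibitory nuclei (0.878), where it held 98.4 CPM against 52.6 to 58.2 in the other cortical units.

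The region effect of Oprk1 differed between neuron classes. The log2 difference of inhibitory minus excitatory nuclei was 4.33 by edgeR's interaction test, from 9 and 7 UMIs in inhibitory nuclei of hippocampus and cortex and 7 and 70 in excitatory nuclei.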

How the results depend on the processing

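Over all nuclei 7 members were called, and Cckbr and Crhr1 were called in all 15 alternatives run. Leaving out 1 unit gave 2 to 5 members, with 2 without cortical unit 2 and without hippocampal unit 3. DESeq2 called 5, without Oprk1 (adjusted p = 0.0511) and Sstr4 (0.13). In excitatory nuclei 4 members were called. Clustering with the peptide and receptor genes left in gave 2: there a cluster of 1189 nuclei led by C1ql2 and Prox1, genes of dentate granule cells, scored 0.594, under the 0.6 needed for the excitatory name, and hippocampal excitatory nuclei fell from 758, 489, 502 and 580 to 544, 242, 249 and 269. In excitatory nuclei, leaving out 1 unit gave 2 (hippocampal unit 1) to 7 (hippocampal unit 0). Cckbr was called in all 18 alternatives run and Oprk1 in 14 of 15. In inhibitory nuclei 0 members were called, against 1 without the count filter, 1 with title numbers 1 to 3 alone, and 0 to 1 without 1 unit. For the difference between classes 1 member was called, against 2 without called doublets, 2 with title numbers 1 to 3 alone, and 0 (without hippocampal unit 3) to 2 without 1 unit.

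Genes called over all nuclei rose from 2278 to 4128 with title numbers 1 to 3 alone. In excitatory nuclei 1804 were called, against 565 with peptide genes in the clustering, 3469 with title numbers 1 to 3 alone, 2791 without cortical-layer-like nuclei and 1121 to 2544 without 1 unit. In inhibitory nuclei 8 were called, against 5 by DESeq2, 19 with peptide genes in the clustering, 15 without called doublets, 49 without the filter, 36 with the replicate block, 119 with title numbers 1 to 3 alone, 1 without I1 and I4 and 2 to 74 without 1 unit. Without I1 and I4, 0 members were called in inhibitory nuclei and Oprk1 in the difference between classes (log2 4.34, edgeR adjusted p = 0.0219). The difference between classes had 328, and 201 to 444 without 1 unit.

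Signs turned only for members without a call. Npy1r over all nuclei was 0.01 with the UMI floor, 0.02 with the replicate block and 0.01 without cortical-layer-like nuclei, and -0.24 to 0.12 without 1 unit. With peptide genes in the clustering, and so without that cluster, excitatory Npy1r was -0.85 and Rxfp1 0.42. Without 1 unit, excitatory Rxfp1 ranged from -0.50 to 0.04 and Sstr3 from -0.01 to 0.29. The difference between classes of Crhr1 was -1.34 without called doublets. The cause of the other turns was not tested. Folds against a group with 0 UMIs (Crhr1 and Vipr1 in the difference between classes) are not given. The replicate block called 7 members over all nuclei, the same number as without it, and 3086 genes. In excitatory nuclei it called 6 members and 2637 genes, and in inhibitory nuclei 0 members. Beyond Vipr1 and Npy1r in excitatory nuclei it changed no call of a member. Levels by neuron type moved by less than their spread under each alternative run. Oprk1, Sstr2, Sstr3 and Sstr4, with 42 to 107 UMIs each in hippocampus, are limited by depth.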
